A study of Mus musculus with 4 samples.

Results

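Hepatokines are hormones that the liver secretes to act on metabolism in other organs. The genes described here are 7 of them (*Fgf21*, *Gdf15*, *Lect2*, *Enho*, *Fgl1*, *Inhbe* and *Angptl6*) and *Creb3l3*, which encodes CREB-H, a transcription factor that controls *Fgf21* and genes of triglyceride handling. They were picked by name, and all 8 are among the 35739 genes of the table of TPM values (a level corrected for transcript length and scaled to an equal total in each library) that was deposited for *Usp21* KO and WT livers. Usp21 is a ubiquitin-specific protease. The KO mice lacked exons 3 and 4 of *Usp21* in all tissues after Cre-loxP recombination, and the neomycin cassette had been removed with Flp recombinase. The allele was made in 129/Sv ES cells, and carriers of the KO allele were of a mixed B6 × 129/Sv background. WT mice were littermates of the KO mice. Mice of both genotypes were 10 to 11 weeks old and ate a normal diet under a cycle of 12 h light and 12 h dark. The hour of sacrifice and the feeding state of the mice with RNA-seq libraries are not given in the sources used here. The comparison asks which liver genes differ when *Usp21* is lost, and it rests on 2 WT livers (replicates 2 and 3) and 2 KO livers (replicates 1 and 3), with 1 library each.

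CREB-H is made as a protein of the endoplasmic reticulum membrane. In fasting or under stress of that organelle it moves to the Golgi, where the site-1 and site-2 proteases (*Mbtps1* and *Mbtps2*) release its active part. FGF21, the fasting hormone it controls together with PPAR-alpha, acts through FGF receptors that carry the co-receptor beta-Klotho (*Klb*). GDF15 signals cellular stress to the hindbrain, and both *Fgf21* and *Inhbe* are also known targets of ATF4, the transcription factor of the integrated stress response. Adropin, the product of *Enho*, affects the choice between glucose and fatty acid as fuel. LECT2, FGL1 and ANGPTL6 are further secreted liver proteins with metabolic effects, and *Inhbe* encodes the subunit of activin E.

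All 8 genes are protein coding and lie on the reverse strand in the GENCODE M21 annotation of GRCm38. *Creb3l3* covers chromosome 10 from 81084324 to 81098874 and has 12 exons. *Inhbe* lies on the same chromosome, from 127348857 to 127354411. *Gdf15* (chromosome 8, 70629393 to 70632456) shares its chromosome with *Fgl1* (41191434 to 41215156). *Fgf21* covers chromosome 7 from 45613886 to 45615490 in 3 exons, and *Enho* covers chromosome 4 from 41638144 to 41640324 in 2 exons with only 228 bp of coding sequence. *Lect2* lies on chromosome 13, from 56542464 to 56548502, and *Angptl6* on chromosome 9, from 20873808 to 20879727.

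Promoter windows were searched for 6 motifs of factors known to act on these or on clock and fasting genes. RefSeq promoter windows on GRCm38.p6, which reach from 250 bases before to 50 bases after a start site, matched 6 of the 8 genes, with 8 windows in all, and *Enho* and *Fgl1* had none. Capitals in the following stretches mark the motif, and all are read 5′ to 3′ on the reverse strand. The first pair is shown for the letters TTGCATCA, a composite site of ATF4 and C/EBP factors, and the last for the E-box CACGTG, to which the clock factors CLOCK and BMAL1 bind.
*Fgf21*, composite site, chr7:45615614-45615637: cccccccaTTGCATCAtccgtcca
*Inhbe*, composite site, chr10:127352014-127352037: cctctttcTTGCATCAtgcatgtc
*Fgf21*, E-box, chr7:45615527-45615548: ggggagggCACGTGggcgggcc

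The composite site began 139 bases before the start of *Fgf21* and 181 bases before the RefSeq start of *Inhbe*. That *Inhbe* stretch lies inside the longer transcript of GENCODE M21. On either strand, TTGCATCA was found in 2 of the 8 windows and in 0.895% of the 32851 windows of all genes. CACGTG was found in the *Fgf21* window and in 1 of the 2 *Gdf15* windows, compared with 7.15% of all windows. The D-box TTATGTAA, bound by DBP, and the cyclic AMP response element TGACGTCA were in none of the 8 windows and in 0.938% and 1.79% of all windows. The same was true of the DR1 element of PPAR-alpha with RXR (0.0396% of all windows) and of CAAAGTCCA, a site of HNF4-alpha (0.475%). These are matches of letters, and binding was not measured.

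The tissue label fitted the libraries, since the 7 hepatocyte markers together came to between 47838 and 69549 TPM. The summed markers of Kupffer cells (6 genes) came to between 51.6 and 135 TPM and those of sinusoidal endothelium (5 genes) to between 31.6 and 49.6 TPM, with overlapping groups for both. Those of stellate cells (5 genes) came to 53.5 and 41.4 TPM in the WT livers, against 77.5 and 60.0 TPM in the KO livers. Those of cholangiocytes (4 genes) came to 1.39 and 3.19 TPM, against 4.56 and 3.82 TPM. Both sums were higher in both KO livers, but most of the stellate sum was *Dcn* (42.6 and 34.1 TPM in WT, 62.8 and 48.4 TPM in KO). Groups did not overlap for 2 of the 5 stellate genes and 1 of the 4 cholangiocyte genes, and the mean of *Krt7*, a cholangiocyte gene, was lower in KO. The part of these cells in the differences between genotypes was not tested. Lymphocyte markers (4 genes, 1.70 to 2.65 TPM) were low, red blood cell genes (3 genes) came to 437 to 598 TPM, and 3 of 4 exocrine pancreas genes were listed at 0 in every library. In whole liver, fewer cells of a type and less RNA per cell cannot be told apart. *Usp21* itself had 4.07 and 6.29 TPM in the WT livers, against 1.64 and 2.93 TPM in the KO livers, with both KO livers below both WT livers, but the difference did not pass the adjusted test (log2 fold change -0.92, SE 0.33, adjusted p = 0.464 from limma). The deletion leaves the other exons in place. The libraries of 1 genotype were not alike throughout: the acute phase gene *Saa1* had 47.8 TPM in WT replicate 2 and 1089 TPM in WT replicate 3, and *Cyp4a14*, a PPAR-alpha target, had 356 and 21.6 TPM.

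Mean levels of the hepatokines ranged from 0.584 to 283 TPM in WT and from 1.05 to 284 TPM in KO. TPM is corrected for transcript length, so it can be compared between genes within a library. *Fgl1* was the highest in every library, with a mean of 283 TPM in WT and 284 TPM in KO. *Lect2* followed in WT at 130 TPM, then *Creb3l3* at 81.6 TPM and *Enho* at 35.1 TPM, and none of these 4 neighbours overlapped in WT. In KO the ranges of *Lect2* and *Creb3l3* overlapped, because *Lect2* was below *Creb3l3* in KO replicate 3. The other 4 genes were low, with means from 0.584 to 4.65 TPM in WT and from 1.05 to 5.12 TPM in KO. Among these, *Angptl6*, *Inhbe* and *Gdf15* lay between 2.84 and 4.65 TPM in WT, and *Gdf15* overlapped with its neighbours on either side. *Fgf21* came last in every library. The plot of TPM by library shows all 8 genes.

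**Figure D1:**
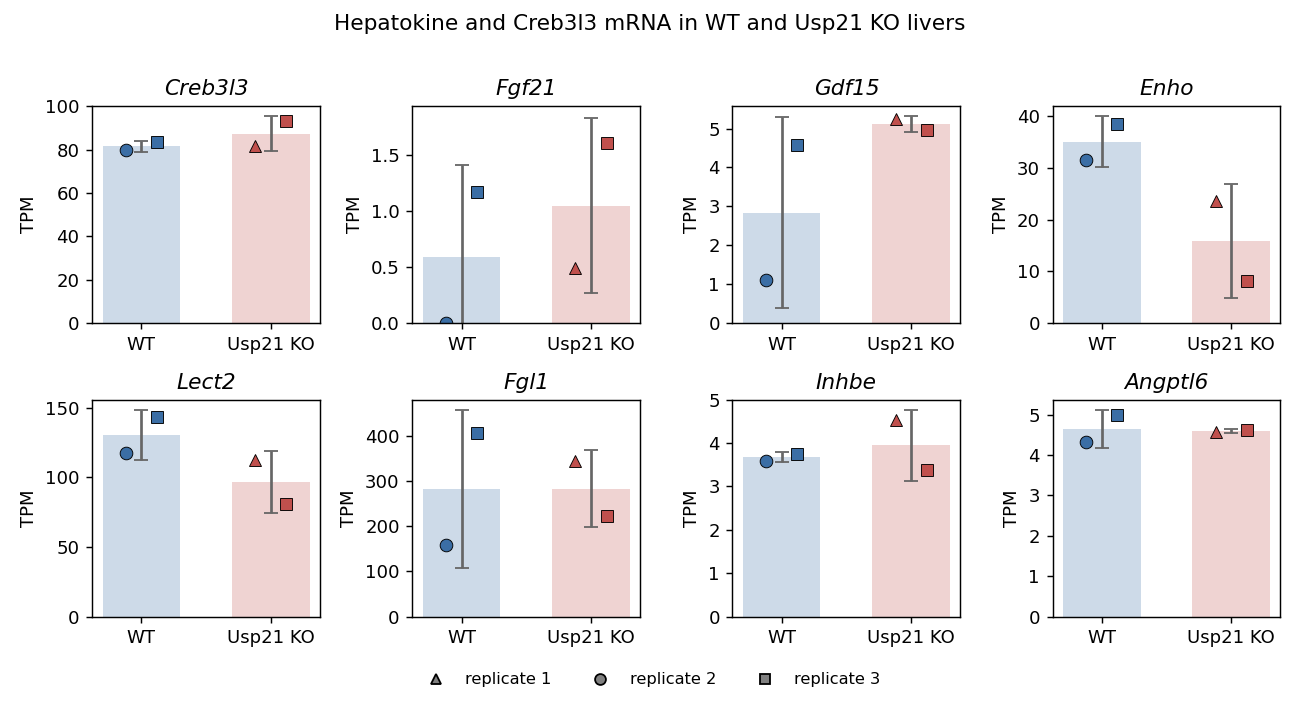
TPM (vertical axes, from 0) of each gene in WT livers (blue, replicates 2 and 3) and *Usp21* KO livers (red, replicates 1 and 3); bars are means, error bars 1 SD over 2 livers and points single livers. Both KO points of *Enho* and *Lect2* are below both WT points, both KO points of *Gdf15* are above, and the other 5 genes overlap.

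Genotypes were compared with the two-sided moderated test of limma on log2(TPM + 1). Genes whose mean reached 1 TPM entered the Benjamini-Hochberg adjustment, 9581 in all, and 7 of the 8 genes were among them. On this scale the change of a low gene is understated. None of the 7 had an adjusted p under 0.05, which 0.0835% of all tested genes had. The groups did not overlap for 3 of the 7 (*Enho* and *Lect2* lower in KO, *Gdf15* higher), compared with 45.3% of all tested genes (10.9% lower and 34.4% higher). Before adjustment, 1 of the 7 (*Enho*, lower in KO) had p under 0.05, compared with 10.5% of all tested genes (2.04% lower and 8.45% higher), and 1 of the 7 (*Enho*) differed by at least 2-fold, compared with 3.68%. These shares are near the background or rest on a single gene. For a single gene, the smallest two-sided p that exact permutation of 2 and 2 livers allows is 0.333.

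*Creb3l3* was the steadiest of the abundant genes. It had 79.9 and 83.4 TPM in the WT livers (replicates 2 and 3) and 81.6 and 93.0 TPM in the KO livers (replicates 1 and 3). The means were 81.6 ± 2.51 and 87.3 ± 8.09 TPM (± SD, n = 2 livers each). KO replicate 1 lay between the WT livers, so the groups overlapped. Its log2 fold change was 0.09, with a 95% confidence interval from -0.32 to 0.51 (adjusted p = 0.847 from limma). All 4 libraries were within 1.16-fold of each other. The median of all tested genes was 0.15 on the same scale, and with each library scaled to an equal upper quartile *Creb3l3* was at -0.04 and the median of all genes at 0.04.

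The genes that make and regulate active CREB-H were also expressed. *Mbtps1*, the site-1 protease, had 11.0 and 8.40 TPM in the WT livers, against 12.4 and 11.2 TPM in the KO livers (a log2 change of 0.27, SE 0.22). *Mbtps2*, the site-2 protease, was lower and uneven, with 2.29 and 0.495 TPM in the WT livers, against 2.17 and 1.61 TPM in the KO livers, and the groups overlapped. *Ppara*, the partner of CREB-H, had 11.6 and 12.8 TPM in the WT livers, against 13.2 and 13.9 TPM in the KO livers, without overlap but at a log2 change of only 0.15. Of the 8 genes on the list of CREB-H processing and partners, 0 passed the adjusted test, and 1 reached an unadjusted p under 0.05, higher in KO (8.45% of all tested genes did so). That gene was *Syvn1*, a ubiquitin ligase of the endoplasmic reticulum, at 12.3 and 10.2 TPM in the WT livers, against 20.1 and 23.3 TPM in the KO livers (a log2 change of 0.89, adjusted p = 0.450 from limma).

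Of the 10 listed CREB-H targets, 8 passed the filter, with 6 above and 2 below WT in KO livers. Their median log2 fold change was 0.27, beside 0.15 for all tested genes. None had an adjusted p under 0.05. The gluconeogenic enzyme gene *G6pc1* had 22.4 and 31.6 TPM in the WT livers, against 56.4 and 173 TPM in the KO livers (a log2 change of 1.85, SE 0.52, adjusted p = 0.464 from limma), and it was at 1.05 without KO replicate 3. The pentraxin *Apcs* had 51.3 and 80.3 TPM in the WT livers, against 224 and 138 TPM in the KO livers. Both KO livers were above both WT livers for 3 of the 8 targets, these 2 among them, compared with 34.4% of all tested genes. The lipoprotein genes on the list stood otherwise: *Apoa4* had 77.9 and 44.9 TPM in the WT livers, against 22.3 and 55.5 TPM in the KO livers, and *Apoa5* and *Apoc2* were at log2 fold changes of 0.07 and 0.09, all with overlapping groups.

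*Enho*, which encodes adropin, had the largest log2 fold change of the 8 on log2(TPM + 1) with all libraries. With a pseudocount of 0.1, *Fgf21* (1.5) exceeded it (-1.33). *Gdf15* exceeded it without WT replicate 3 (1.54 against -1.12) and without KO replicate 3 (0.87 against -0.54). *Enho* had 31.6 and 38.6 TPM in the WT livers (replicates 2 and 3) and 23.7 and 8.08 TPM in the KO livers (replicates 1 and 3). The means were 35.1 ± 4.91 and 15.9 ± 11.0 TPM (± SD, n = 2 livers each). Both KO livers were below both WT livers, and the KO livers were 2.93-fold apart. The log2 fold change was -1.26 (SE 0.47, 95% confidence interval -2.43 to -0.09, unadjusted p = 0.0391 and adjusted p = 0.468 from limma), so the difference did not pass the test. It was -0.54 without KO replicate 3 and -1.98 without KO replicate 1.

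Of the 13 tested genes of the circadian clock, 4 were higher and 7 lower in KO without overlap, compared with 34.4% and 10.9% of all tested genes, and *Nr1d1* and *Cry1* overlapped. REV-ERB and ROR nuclear receptors of the clock are known regulators of *Enho*. The ROR gene *Rora* had 4.50 and 7.21 TPM in the WT livers, against 11.7 and 7.99 TPM in the KO livers, and its groups did not overlap. *Nr1d1* (REV-ERB-alpha) had 33.9 and 9.92 TPM in the WT livers, against 25.1 and 26.9 TPM in the KO livers, with overlapping groups. The clock gene with an adjusted p under 0.05 was *Dbp*, an output factor of the clock, at 56.8 and 41.3 TPM in the WT livers, against 4.73 and 4.97 TPM in the KO livers (a log2 change of -3.08, adjusted p = 0.0193 from limma). *Dbp* lost this call without moderation of the variances, without the filter and without any 1 library, but its log2 fold change was -3.08 in the first 2 cases and between -3.31 and -2.85 with a library left out. It was at 1.07 in a second deposited table, of CPM values, which lists most abundant liver genes at 0 and whose strand setting is not given, so that value cannot be weighed against the TPM. *Bmal1* (*Arntl*) had 0.241 and 0.243 TPM in the WT livers, against 5.89 and 4.05 TPM in the KO livers. *Clock* (a log2 change of 1.26) and *Nfil3* (1.69) were also higher and *Tef* (-1.06) lower, without passing the adjusted threshold. The part of the clock genes in the *Enho* difference was not tested.

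*Gdf15* had 1.10 and 4.57 TPM in the WT livers (replicates 2 and 3) and 5.26 and 4.97 TPM in the KO livers (replicates 1 and 3). The means were 2.84 ± 2.46 and 5.12 ± 0.202 TPM (± SD, n = 2 livers each). Both KO livers were above both WT livers, but WT replicate 3 lay close to them and WT replicate 2 stood apart. The log2 fold change was 0.84 (SE 0.48, 95% confidence interval -0.35 to 2.03, adjusted p = 0.541 from limma). Leaving out WT replicate 2 gave 0.13, and leaving out WT replicate 3 gave 1.54.

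*Fgf21* was barely present in these livers. It was listed at 0 in WT replicate 2 and had 1.17 TPM in WT replicate 3, 0.492 TPM in KO replicate 1 and 1.60 TPM in KO replicate 3. The groups overlapped, and its mean was under the filter. Fitted among all genes above 0 in any library, its log2 fold change was 0.42 (SE 0.47, adjusted p = 0.776 from limma), and it was -0.14 without WT replicate 2. With a pseudocount of 0.1 it was 1.5, and with 5 it was 0.12. TPM does not record depth, so a listed 0 cannot be given a limit.

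The receptors for FGF21 were measured at low levels. *Klb* had 5.66 and 3.97 TPM in the WT livers, against 3.33 and 3.84 TPM in the KO livers, and *Fgfr4*, the main FGF receptor of hepatocytes, had 8.27 and 5.49 TPM in the WT livers, against 10.2 and 8.65 TPM in the KO livers. The groups did not overlap for either gene, *Klb* being lower and *Fgfr4* higher in KO, with log2 fold changes of -0.33 and 0.43 (SE 0.26 and 0.26). *Klb* was at -0.12 without WT replicate 2 and at -0.54 without WT replicate 3, and *Fgfr4* was at 0.68 and 0.17. *Fgfr1*, the receptor FGF21 uses in fat tissue, had between 0.601 and 1.42 TPM. *Fgfr3* had the lowest p of the list, with 3.11 and 2.53 TPM in the WT livers, against 6.18 and 5.18 TPM in the KO livers (a log2 change of 0.81, unadjusted p = 0.0179 and adjusted p = 0.464 from limma).

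Of the 9 listed receptors of the other hormones, 3 were not detected. *Gfral* and *Ret*, which form the GDF15 receptor in the hindbrain, and *Acvr1c*, the ALK7 receptor of activin E in fat, were listed at 0 in all 4 libraries. *Met*, which LECT2 is reported to bind, had between 7.60 and 10.4 TPM. *Acvr2a*, an activin type 2 receptor, had 2.53 and 2.37 TPM in the WT livers, against 4.23 and 4.21 TPM in the KO livers (a log2 change of 0.60, unadjusted p = 0.0452 and adjusted p = 0.472 from limma). *Gpr19*, a proposed adropin receptor, had 2.89 and 2.79 TPM in the WT livers, against 1.37 and 1.92 TPM in the KO livers, so that both KO livers were below both WT livers (a log2 change of -0.54, adjusted p = 0.498 from limma). Of the 14 listed receptor genes, 10 passed the filter, 8 above and 2 below WT in KO livers. The median was 0.35, beside 0.15 for all tested genes, and 0 had an adjusted p under 0.05.

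The stress and fasting programs known to act on *Fgf21* held genes on both sides of 0. *Atf4* had 35.9 and 41.5 TPM in the WT livers, against 53.8 and 36.0 TPM in the KO livers, with overlapping groups. Of the 9 tested genes of the integrated stress response, 4 were higher and 5 lower in KO, and the median was -0.03. Without adjustment, 0 of them reached p under 0.05, compared with 10.5% of all tested genes. Groups did not overlap for 3 of the 9, all higher in KO, compared with 34.4% of all tested genes. *Trib3*, an ATF4 target, had 10.4 TPM in WT replicate 2 and between 1.43 and 2.77 TPM in the other libraries. Of the 17 tested PPAR-alpha targets, 13 were higher and 4 lower. Their median was 0.35, beside 0.15 for all tested genes, and 0 had an adjusted p under 0.05. Groups did not overlap for 9 higher genes and 1 lower gene, compared with 34.4% and 10.9% of all tested genes. *Plin2*, a lipid droplet protein, had 119 and 88.7 TPM in the WT livers, against 179 and 271 TPM in the KO livers, and *Pdk4*, which restrains glucose oxidation, had 0.457 and 0.423 TPM in the WT livers, against 1.25 and 2.69 TPM in the KO livers. *Cyp4a10* stood the other way, with 508 and 88.0 TPM in the WT livers, against 39.7 and 91.3 TPM in the KO livers, and its groups overlapped. The lower target without overlap was *Cyp4a14*, with 356 and 21.6 TPM in the WT livers, against 8.76 and 20.7 TPM in the KO livers (a log2 change of -2.63, SE 1.25). Its value in WT replicate 3 lay close to that in KO replicate 3.

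**Figure D2:**
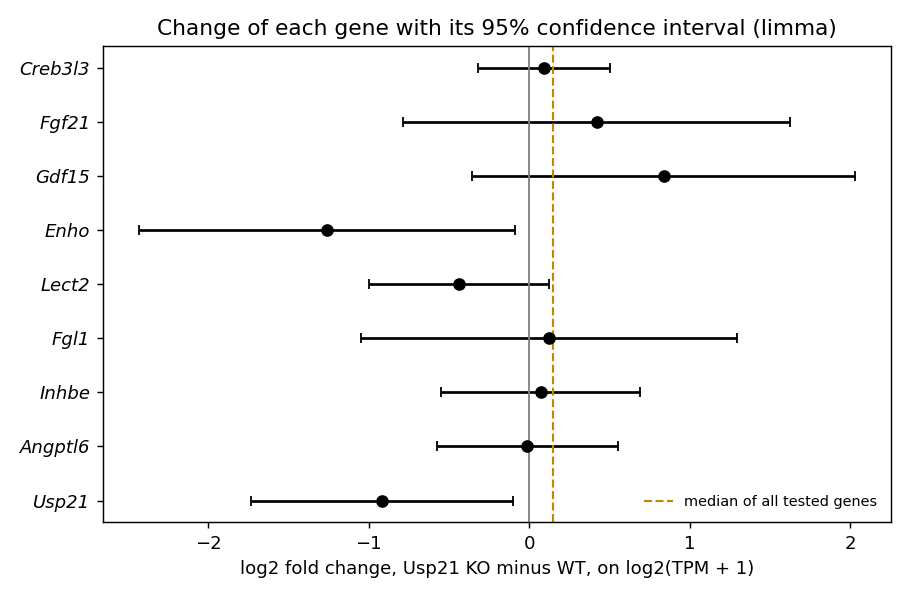
Log2 fold change of *Usp21* KO over WT on log2(TPM + 1) (horizontal axis) for the 8 genes and *Usp21*, with 95% confidence intervals from limma over 2 livers per genotype; the dashed line is the median of all tested genes, 0.15. The intervals of *Enho* and *Usp21* do not reach 0 before adjustment for the number of genes, and the other 7 include 0.

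*Lect2* had 117 and 143 TPM in the WT livers (replicates 2 and 3) and 112 and 80.6 TPM in the KO livers (replicates 1 and 3). The means were 130 ± 18.1 and 96.5 ± 22.6 TPM (± SD, n = 2 livers each). The groups did not overlap, but KO replicate 1 was close to WT replicate 2. The log2 fold change was -0.44 (SE 0.23, adjusted p = 0.516 from limma). It stayed below 0 with each library left out in turn, from -0.68 to -0.20, the latter without KO replicate 3.

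*Fgl1*, the most abundant of these hormones, had 158 and 407 TPM in the WT livers, against 344 and 223 TPM in the KO livers. The WT livers were the lowest and the highest of the 4, so the KO livers lay between them. Its log2 fold change was 0.13, with a wide 95% confidence interval from -1.05 to 1.30 (adjusted p = 0.931 from limma). Leaving out WT replicate 2 gave -0.55, and leaving out WT replicate 3 gave 0.80. FGL1 is made in larger amounts in the acute phase response. Of the 16 genes on the acute phase list, 9 had their highest value in WT replicate 3, and the other 7, among them *Apcs*, *Stat3* and the 3 fibrinogen chains, did not. *Saa2* had 24.7 TPM in WT replicate 2, 492 TPM in WT replicate 3, and 59.6 and 26.4 TPM in KO. *Lcn2* had 4.59, 67.1, 4.12 and 2.67 TPM in the same order, and *Orm2* had 135 TPM in WT replicate 3 and was lower in the other livers, with 17.1 TPM in WT replicate 2. Between genotypes, 6 of these genes were higher and 10 lower in KO, 0 passed the adjusted test, and their part in the *Fgl1* values was not tested.

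*Inhbe* and *Angptl6* were the most even of the low genes. *Inhbe* had 3.59 and 3.76 TPM in the WT livers, against 4.52 and 3.37 TPM in the KO livers, with both WT livers between the KO livers (a log2 change of 0.07, 95% confidence interval -0.55 to 0.69, adjusted p = 0.925 from limma). *Angptl6* had 4.32 and 4.98 TPM in the WT livers, against 4.56 and 4.62 TPM in the KO livers, all within 1.15-fold (a log2 change of -0.01, 95% confidence interval -0.58 to 0.55, adjusted p = 0.985 from limma).

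Their gene families were expressed unevenly. *Inhbc*, the neighbour of *Inhbe* on chromosome 10 and the other activin subunit made by the liver, was higher than *Inhbe* in every library, at 16.0 and 22.8 TPM in the WT livers, against 22.2 and 31.2 TPM in the KO livers. *Inhba* had between 0.567 and 1.89 TPM, and *Inha* was listed at 0. The activin antagonist *Fst* had 0.295 and 1.01 TPM in the WT livers, against 1.93 and 2.04 TPM in the KO livers (a log2 change of 0.89, unadjusted p = 0.0345 and adjusted p = 0.464 from limma). Among the angiopoietin-like genes *Angptl4*, an inhibitor of lipoprotein lipase, had 39.8 and 32.7 TPM in the WT livers, against 37.3 and 108 TPM in the KO livers, so that its higher mean in KO came from KO replicate 3. *Angptl8*, an insulin-responsive hepatokine, had 19.1 and 76.7 TPM in the WT livers, against 50.1 and 17.6 TPM in the KO livers. The groups of both overlapped.

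The wider set of 19 hepatokine genes had 8 genes above and 11 below WT in KO livers. The median was -0.02, beside 0.15 for all tested genes, and 0 had an adjusted p under 0.05. Without overlap, 4 were higher and 5 lower in KO, compared with 34.4% and 10.9% of all tested genes. *Ahsg* (fetuin-A) had between 5480 and 7497 TPM and *Selenop*, which carries selenium, between 2863 and 3666 TPM, both lower in each KO liver than in either WT liver (log2 fold changes -0.23 and -0.24, adjusted p = 0.725 and 0.672 from limma). *Hamp*, which encodes the iron hormone hepcidin, ranged from 863 to 2084 TPM with overlapping groups. *Igfbp1*, a fasting-induced binding protein of insulin-like growth factors, had 6.28 and 18.4 TPM in the WT livers, against 21.5 and 42.3 TPM in the KO livers (a log2 change of 1.39, SE 0.54, adjusted p = 0.472 from limma), and it was at 0.69 without WT replicate 2 and 0.92 without KO replicate 3. Its groups did not overlap, and it was at least 2-fold higher in KO, as were 2.59% of all tested genes (1.1% were at least 2-fold lower). Of the 19, *Igfbp1* was the 1 gene at least 2-fold higher, and 2 were at least 2-fold lower.

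Before adjustment, p under 0.05 was reached in limma by 2 of 8 CREB-H targets, 2 of 10 receptor genes, 3 of 17 PPAR-alpha targets, 2 of 16 acute phase genes and 1 of 4 genes of the activin and inhibin family, all of them higher in KO, where 8.45% of all tested genes reached it. Among the 8 genes of CREB-H processing and partners 1 higher gene reached it. Among the 19 other hepatokines 2 higher genes and 1 lower gene reached it. None of the 5 tested angiopoietin-like genes or the 9 tested genes of the integrated stress response did. Of the 13 clock genes, 3 higher and 5 lower reached it, where 2.04% of all tested genes were lower with such a p. Over all lists, with each gene counted once, 14 higher and 6 lower genes of 99 tested reached it, compared with 10.5% of all tested genes in both directions together. The lists share genes, so their counts are not independent. *Apcs* is counted with both the CREB-H targets and the acute phase genes, and *Fst* with both the activin and inhibin family and the other hepatokines.

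**Figure D3:**
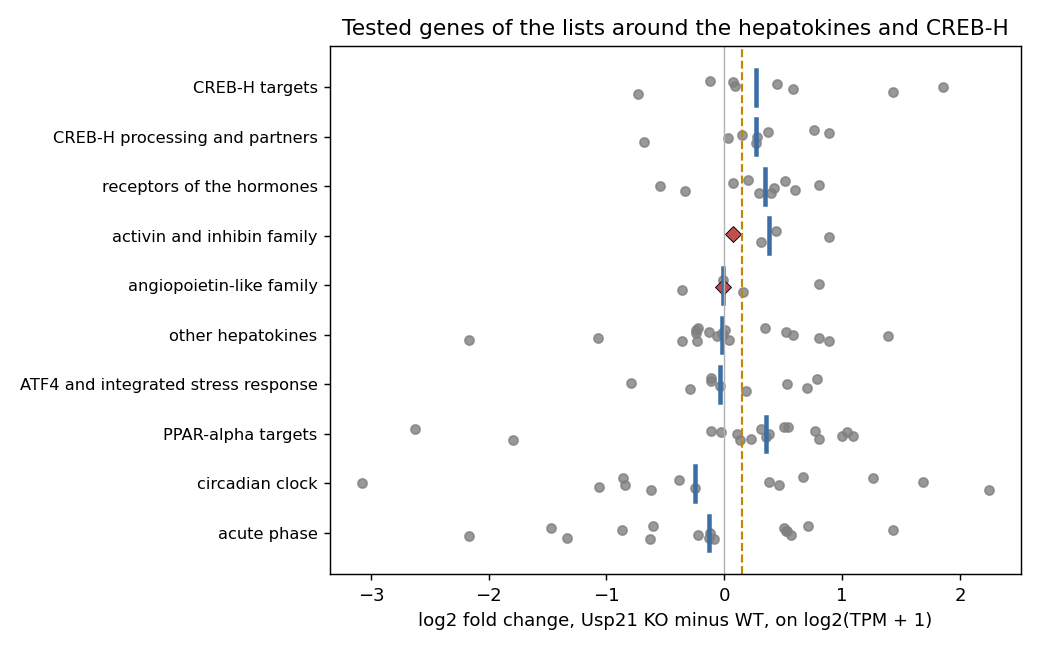
Log2 fold change of *Usp21* KO over WT on log2(TPM + 1) (horizontal axis) of the tested genes of each list (grey points; red diamonds are *Inhbe* and *Angptl6*), with the median of each list (blue line) and of all tested genes, 0.15 (dashed line). The medians lie between -0.25 (circadian clock) and 0.38 (activin and inhibin family), and *Dbp*, at -3.08, is the only gene with an adjusted p under 0.05.

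For the 3 hepatokines past the filter whose log2(TPM + 1) values spanned at least 1, the genes with the nearest profile were sought among genes whose mean reached 10 TPM. Nearness was the root mean square distance of the centred log2(TPM + 1) values over the 4 libraries. Nearest to *Enho* were *Gar1* (0.22), a protein of small nucleolar ribonucleoproteins, *Upp2* (0.23), a uridine phosphorylase, and *Msmo1* (0.24), an enzyme of sterol synthesis, with 0 of 4024 genes within 0.2. *Upp2* had 204 and 257 TPM in the WT livers, against 187 and 84.3 TPM in the KO livers. Nearest to *Gdf15* were *Net1* (0.10), *mt-Co2* (0.13) and *Trip12* (0.15), and 9 genes were within 0.2. *mt-Co2*, a mitochondrially encoded subunit of cytochrome c oxidase, had 6170 TPM in WT replicate 2 and between 14804 and 16290 TPM in the other libraries. Nearest to *Fgl1* were *Zfp36* (0.09), which promotes mRNA decay, *Saa4* (0.14), a serum amyloid A gene, and *Jund* (0.14), a subunit of AP-1, and 7 genes were within 0.2. *Saa4* had 61.0 TPM in WT replicate 2, 181 TPM in WT replicate 3, and 128 and 104 TPM in KO. The neighbours were picked for their nearness, so a shared lowest library follows from the choice. By their own values, *Gdf15* and *Fgl1* differed mostly between the WT livers (log2 gaps of 1.41 and 1.36). *Enho* had its gap between the KO livers (1.44), with KO replicate 3 the lowest.

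**Figure D4:**
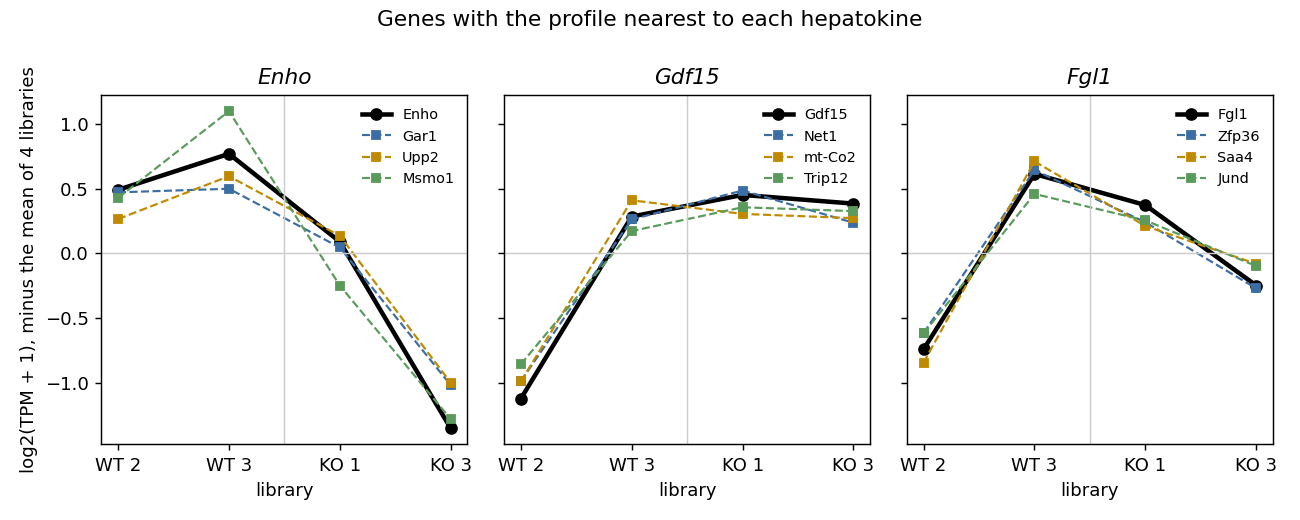
Centred log2(TPM + 1) (vertical axis) in the 4 libraries for *Enho*, *Gdf15* and *Fgl1* (black) and the 3 genes nearest to each (coloured); lines only join the points of 1 gene. *Enho* and its neighbours are lowest in KO replicate 3, while *Gdf15*, *Fgl1* and their neighbours are lowest in WT replicate 2. The neighbours were picked for this likeness.

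The second deposited measure, reads counted per gene with HTSeq and scaled as CPM, said little of these genes. It listed 6 of the 8 at 0 in all 4 libraries, *Fgl1* and *Lect2* among them, as it did 530 of the 817 genes whose mean reached 100 TPM. Whole reads could be recovered from it, 100% of the values above 0 being whole within 0.02 reads. *Inhbe* had 1 read in KO replicate 3 and 0 elsewhere, and *Usp21* was at 0 throughout. *Angptl6*, a low gene by TPM, had 23 and 20 reads in WT and 26 and 14 reads in KO, or 177 and 183 CPM and 174 and 129 CPM. Its end overlaps 500 bp of *Shfl* (A230050P20Rik) on the other strand, which had 10 and 13 reads in WT and 9 and 7 reads in KO, and 6.05 and 6.96 TPM in the WT livers, against 11.2 and 6.91 TPM in the KO livers. The strand setting of the counting is not given in the sources used here, so reads of these 2 genes cannot be told apart in the CPM table. *Enho* overlaps the antisense gene Gm12406 over 947 bp and *Inhbe* lies within the span of the antisense gene Gm47200, so their TPM values carry the same limit if strand was not used. The CPM listed for *Angptl6* gave a log2 fold change of -0.25 on log2(CPM + 10) (adjusted p = 0.780 from limma). That value cannot be assigned to *Angptl6* alone.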

How the data were processed

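RNA of WT and *Usp21* KO livers was sequenced on an Illumina MiSeq. Per the file headers and the labels, the authors estimated transcript levels with salmon against mm10 and deposited TPM per gene. They also counted reads with HTSeq, scaled them with the TMM method of edgeR and deposited CPM, treated here as a scaled signal, since the column totals differ. Versions, annotation release and strand setting are not given in the sources used here. Deposited log2 copies of both tables were not used, and 0 further sample columns were present.

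The genes and lists were chosen with earlier results of these data known, and so was the choice of TPM as the main values. The 9581 genes whose mean reached 1 TPM were fitted on log2(TPM + 1) with limma 3.58.1 (R 4.3.3, eBayes with trend, prior degrees of freedom 3.62), without covariates. Genes under the filter were fitted among the genes above 0 in any library. The scripts were tested on simulated data. TPM keeps no depth, and the reads recovered from the CPM table came to between 102898 and 148164 per library. These reads leave out most abundant genes, so they do not measure the depth behind the TPM values. A count of 0 in the CPM table allows 3 reads, or 20.0 to 27.7 CPM. That limit covers counting error only, and not the abundant genes listed at 0. The p-values set each difference against the spread between 2 livers per genotype, moderated with the spread of the other genes. In the TPM table, 35126 gene identifiers matched GENCODE M21 (GRCm38). *Arntl* and *G6pc* of the annotation are *Bmal1* and *G6pc1* in the TPM table, and *Ddit3*, with 2 identifiers, was taken from the first.

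Named list genes are those with an unadjusted p under 0.05 and a change of at least 2-fold, and direct partners of the hormones. Some listed genes are counted with their lists but not reported here by name. Other genes are named to give the values on which a statement about their list turns, and were chosen after their values were seen. Alternatives were other pseudocounts, filters and scaling, no moderation, the CPM table, each library left out and, chosen after seeing the data, edgeR 4.0.16 on the recovered reads.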

Additional observations from a re-analysis of the deposited data

How the results depend on the processing

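None of the 8 genes passed an adjusted p under 0.05 under any alternative run, and *Enho*, *Lect2*, *Gdf15* and *Usp21* kept their direction under each that gave a value. With upper quartile scaling *Creb3l3* (-0.040), *Fgl1* (-0.0077) and *Inhbe* (-0.035) changed sign, and the median of all genes moved from 0.15 to 0.04. Omitting single libraries, the log2 fold change ranged from -0.00084 to 0.19 for *Creb3l3*, from -0.14 to 0.98 for *Fgf21*, from -0.55 to 0.80 for *Fgl1*, from -0.10 to 0.24 for *Inhbe*, from -0.10 to 0.071 for *Angptl6*, from -0.19 to 0.94 for *Mbtps2* and from -1.33 to 0.62 for *Angptl8*. *Dbp* was at 1.07 in the CPM table and at 1.54 in edgeR on the reads recovered from it, a table that lists most abundant genes at 0. The cause of these changes was not tested.

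Adjusted calls (8 genes) numbered 4 without a filter, 0 without moderation (806 had an unadjusted p under 0.05), 12 in edgeR, and 0 to 7 with a library left out, the 0 without KO replicate 1 (699 unadjusted). Genes with an unadjusted p under 0.05 (1005) numbered 639 at a mean of at least 5 TPM, 202 on the CPM, 168 in edgeR and 567 to 1164 with a library left out. Genes changed at least 2-fold (353) numbered 820 with a pseudocount of 0.1, 115 with 5, 203 at a mean of at least 5 TPM, 2915 in edgeR and 482 to 708 with a library left out. Genes with groups apart (4338) numbered 2612 at a mean of at least 5 TPM and 1108 on the CPM or in edgeR. List genes with an unadjusted p under 0.05 (20) numbered 12 at a mean of at least 5 TPM, 12 without moderation, and 0 on the CPM and in edgeR. With 1 library left out, the lone sample is assumed to vary like the other group. *Fgf21*, *Gdf15*, *Inhbe*, *Angptl6* and *Usp21* fell under the filter of 5 TPM, and the CPM table gave a fold for *Angptl6* alone of the 8. No paired analysis was possible because the labels name no pairs or litters, and a replicate number alone does not make a pair.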
